A study of Mus musculus with 480 samples.

Results

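The 8 genes described here regulate the making of motile cilia, and they were followed among the 53379 genes of a count table of single lung cells: Foxj1, Rfx2, Rfx3, Trp73, Myb, Ccno, Mcidas and Foxn4. They were chosen by name, with earlier results of these data known, and each was found once in the table by its Ensembl identifier. The rule that picks them uses no measured value. The cells were 480 single lung epithelial cells of mice, 160 from each of 3 reporter lines. The BASCs-Tracer line carries Sftpc-DreER, Scgba1a1-CreER and R26-RSR-LSL-tdtomato, so that both recombinases must act before a cell is labelled. The Scgb1a1-TD line carries Scgba1a1-CreER and R26-tdtomato, and the Sftpc-TD line carries Sftpc-DreER and R26-RSR-tdtomato. Spellings of the alleles are those of the labels, which give no age, no treatment and no animal. Scgb1a1 is the gene of the main secretory protein of airway club cells, and Sftpc is a surfactant gene that marks alveolar type 2 (AT2) cells. A cell with both products at the junction of airway and alveolus is called a bronchioalveolar stem cell (BASC). Neither driver is a gene that defines ciliated cells, and none of the labels says from how many animals a plate came.

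In multiciliated cells of the airway, the geminin relatives GMNC and MCIDAS act with E2F factors on the gene programme that multiplies centrioles. MYB, TP73 (Trp73), CCNO and FOXN4 act early in the same programme, and CCNO, an atypical cyclin, is needed for the mass production of centrioles. FOXJ1 and the RFX factors then drive the genes of the motile axoneme, and both stay on in mature ciliated cells. Notch signalling favours the club cell fate over the ciliated one.

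The labels annotate 24 ciliated cells, 97 club cells, 38 BASCs and 1 AT2 cell in Scgb1a1-TD. BASCs-Tracer has 15 club cells, 6 AT2 cells and 1 ciliated cell, and its other cells are BASCs. Sftpc-TD has 11 BASCs, and its other cells are AT2 cells. The median depth was 1000460 gene-assigned reads per cell, within 3379 to 3781974, and 12 cells lay under 100000 reads. The 14 ciliated markers (among them Tmem212, Tppp3, Dynlrb2 and Ccdc153) summed to 4851 to 26720 CPM (counts per 1000000 gene-assigned reads) in the 24 ciliated cells, with a median of 14273 CPM. Their median was 11.2 CPM in the 97 club cells, although 3 of those were above 1000 CPM. Because no animal is named, each line and sub-type counts as 1 sample. No test between groups was made, and intervals, at the 95% level, cover counting error only.

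In GRCm38, Foxj1 (ENSMUSG00000034227) lies on the minus strand of chromosome 11 from 116330704 to 116335399. Rfx2 (ENSMUSG00000024206) lies on the minus strand of chromosome 17 from 56775897 to 56831013, and Rfx3 (ENSMUSG00000040929) on that of chromosome 19 from 27761721 to 28011166. Trp73 (ENSMUSG00000029026) lies on the minus strand of chromosome 4 from 154056253 to 154140208, Myb (ENSMUSG00000019982) on that of chromosome 10 from 21124935 to 21160984, and Foxn4 (ENSMUSG00000042002) on that of chromosome 5 from 114254164 to 114273807. Only Ccno (ENSMUSG00000042417) and Mcidas (ENSMUSG00000074651) are neighbours, both on the plus strand of chromosome 13, where Mcidas (112993845 to 113000394) starts 3067 bases after the end of Ccno (112987802 to 112990777).

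RefSeq promoter windows of GRCm38.p6 were matched for 7 of the 8 genes, with 2 starts for Trp73, and Foxj1 was not matched. The core of the sequence bound by RFX factors, GTTGCC on either strand, was found in the 250 bases before the start of Ccno, Mcidas and Rfx2, against 10.4% of all 32851 windows of that length. These 3 are shown because they carry that core, with its letters in capitals, as read 5′ to 3′ on the strand of the gene, from chr13:112987552-112987801 (plus strand), chr13:112993618-112993867 (plus strand) and chr17:56831009-56831258 (minus strand).
Ccno: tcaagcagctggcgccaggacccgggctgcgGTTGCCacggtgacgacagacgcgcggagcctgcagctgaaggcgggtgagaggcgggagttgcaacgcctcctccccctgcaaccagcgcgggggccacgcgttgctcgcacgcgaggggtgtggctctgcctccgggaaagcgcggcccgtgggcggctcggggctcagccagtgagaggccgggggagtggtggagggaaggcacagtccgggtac
Mcidas: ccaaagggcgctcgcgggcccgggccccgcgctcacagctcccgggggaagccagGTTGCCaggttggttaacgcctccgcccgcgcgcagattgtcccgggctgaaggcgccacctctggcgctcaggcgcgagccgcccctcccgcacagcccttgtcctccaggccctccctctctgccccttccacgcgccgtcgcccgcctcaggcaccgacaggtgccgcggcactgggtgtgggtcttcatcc
Rfx2: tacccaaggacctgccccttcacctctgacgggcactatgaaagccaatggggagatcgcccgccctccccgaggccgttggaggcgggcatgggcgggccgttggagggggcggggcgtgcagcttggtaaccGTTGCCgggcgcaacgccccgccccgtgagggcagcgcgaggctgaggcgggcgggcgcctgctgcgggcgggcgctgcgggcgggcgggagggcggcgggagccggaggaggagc
The core starts 219 bases before the start of Ccno and 195 before that of Mcidas, and lies closer to the start in Rfx2. The full palindromic X-box was in 0.110% of all windows and in none of the members' windows, and the forkhead core TGTTTAC was in 3.17% and in none of theirs. The E2F core GCGGGAA was in 3.82% of windows and in 1 of the 2 of Trp73. A match is a stretch of letters, not a bound site.

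Foxj1, the forkhead factor that drives motile cilia genes, was read in nearly every ciliated cell. In the 24 ciliated cells of Scgb1a1-TD its level ran from 0 to 1036 CPM with a median of 263 CPM, and 23 cells held reads. Over all reads of the group it stood at 349 CPM (95% Poisson interval 342 to 357), against 2.35 CPM (2.05 to 2.67) in the 97 club cells. Only 3 club cells held 10 or more Foxj1 reads, and 1 of them, plate 3 well B1, gave 176 of the 228 Foxj1 reads of all club cells. Without the 3 club cells above 1000 CPM of ciliated markers the club level was 0.542 CPM. The ratio on the log2 scale with 1 CPM added was 6.71, and it was 6.48 to 7.66 in the 3 plates that held ciliated cells. Of all Foxj1 reads in the series, 96.5% were in these 24 cells, which held 4.48% of all reads.

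**Figure D1:**
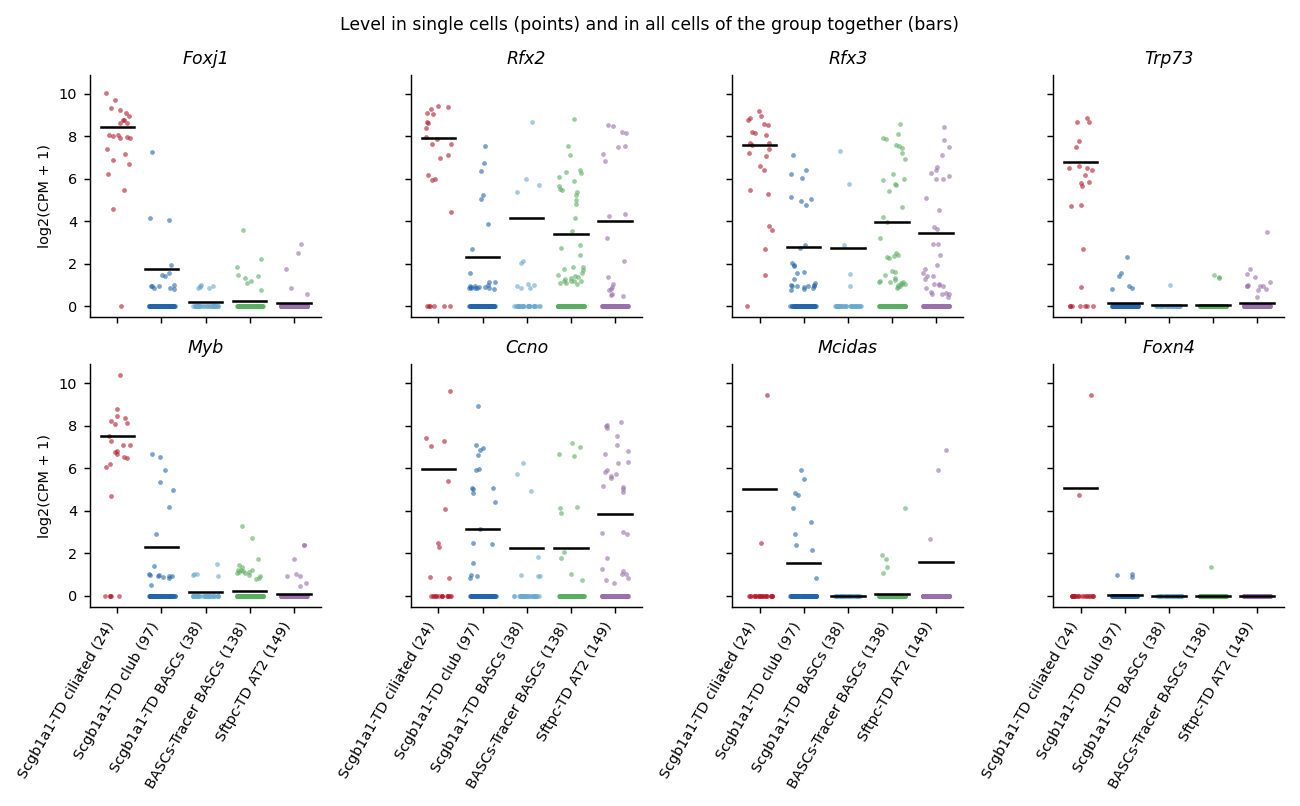
Each point is 1 cell, the vertical axis is log2(CPM + 1), the numbers in parentheses are cells, and each black bar is the level over all reads of the group. Foxj1, Trp73 and Myb are high mainly in ciliated cells, some of which have none, Rfx2, Rfx3 and Ccno have scattered high cells among club cells, BASCs and AT2 cells too, and Mcidas and Foxn4 are high in 1 ciliated cell.

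The RFX factors bind X-box sequences and serve both immotile and motile cilia. Rfx2 ranged from 0 to 689 CPM in the ciliated cells with a median of 169 CPM, and 18 of the 24 held reads. Rfx3 ranged from 0 to 580 CPM with a median of 179 CPM, and 23 of the 24 held reads. Every ciliated cell of Scgb1a1-TD had reads of at least 1 of them, and 16 had reads of Foxj1, Rfx2 and Rfx3 together. Over all reads, Rfx2 stood at 244 CPM in ciliated against 3.93 CPM in club cells, a log2 ratio of 5.63. Rfx3 stood at 193 CPM against 5.82 CPM, a log2 ratio of 4.83. Both were spread far more widely than Foxj1: the ciliated cells held 51.7% of all Rfx2 reads and 49.4% of all Rfx3 reads. In the rest of the RFX family (Rfx1, Rfx4 to Rfx8, and the partners Rfxap and Rfxank) 3 of 8 genes were measured, and 1 of them, Rfx1, was 2-fold or more higher in ciliated cells (32.1 against 9.23 CPM). Rfx7 (22.8 against 13.8 CPM) and Rfx5 (9.72 against 4.93 CPM) lay between the limits, that is, under 2-fold in either direction. Per kilobase of exon the ciliated levels were 33.4 CPM for Rfx2, 17.5 CPM for Rfx3 and 4.998 CPM for Rfx1.

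Trp73, the p53 relative needed for multiciliated cells, had the least signal outside ciliated cells after Foxn4. It ranged from 0 to 456 CPM in the ciliated cells with a median of 52.3 CPM, and 17 of the 24 held reads. Over all reads it stood at 107.5 CPM against 0.113 CPM in club cells, a log2 ratio of 6.61 that was 4.81 to 7.16 by plate. No cell outside the ciliated class held 10 reads of it, and the 23 of 455 such cells with any read had 6 at most. Of all Trp73 reads, 98.4% were in the 24 ciliated cells. Its relatives differed: Trp53 was at 26.4 CPM in ciliated and 42.2 CPM in club cells, and Trp63, which marks basal cells, had 0 reads in both. The antisense gene Trp73os shares 280 exon bases with Trp73 and had 0 reads. Whether reads in those bases were left out of both genes was not tested.

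Myb, a factor best known in blood progenitors and active early in multiciliated cells, ranged from 0 to 1332 CPM with a median of 111.3 CPM, and 19 of the 24 held reads. Plate 4 well D3 alone gave 32.2% of the group's Myb reads. Over all reads it stood at 184 CPM against 3.97 CPM in club cells, a log2 ratio of 5.22 that was 4.47 to 6.90 by plate. Of the Myb reads of the club cells, 94% were in 5 cells, and 83.3% of all Myb reads were in the 24 ciliated cells. Mybl2, a relative linked to dividing cells, was at 18.7 CPM in ciliated cells with reads in 2 of them, and Mybl1 had 0 reads in both groups.

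Ccno, Mcidas and Foxn4 behaved differently, in that 1 cell carried most of their reads. Ccno had reads in 10 of the 24 ciliated cells and ranged from 0 to 801 CPM with a median of 0. Mcidas and Foxn4 had reads in 2 each, with highest values of 704 and 695 CPM, and 21 of the 24 cells had reads of neither. All 3 highest values were in plate 3 well H12, which gave 58.5% of the group's Ccno reads, 99.9% of its Mcidas reads and 96.4% of its Foxn4 reads. The next cells were at 173 CPM for Ccno, 4.64 CPM for Mcidas and 25.8 CPM for Foxn4. The levels over all reads were 62.2 CPM for Ccno, 32.1 CPM for Mcidas and 32.8 CPM for Foxn4, against 7.72, 1.97 and 0.0309 CPM in club cells. Foxn4 had 3 reads in all 97 club cells, and the ratio of its levels was 1062, with a counting interval of 362 to 5161. Without that 1 cell the log2 ratio of Ccno went from 2.86 to 1.68, that of Mcidas turned from 3.48 to -1.50, and that of Foxn4 went from 5.03 to 1.12 with a level of 1.24 CPM. By plate the ratio of Ccno was 0.03, 3.49 and -2.96 in plates 2, 3 and 4, so a higher level in ciliated cells was present in plate 3 alone.

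The cell in plate 3 well H12 stood apart in the genes of centriole production. It had 8865 genes with a read, the most of the 24, at an ordinary depth of 1001147 reads. Deup1, a scaffold of the structures from which centrioles multiply, was at 2029 CPM in this cell and at most 533 CPM in the other ciliated cells. Ccna1, cyclin A1, was at 1338 CPM against at most 459 CPM. Plk4 and Stil, which start a new centriole, were at 394 and 432 CPM, and Cdc20b, at 461 CPM, had reads in no other ciliated cell. Foxj1 (1036 CPM) was higher there than in any other ciliated cell, Myb (444 CPM) was below only that of plate 4 well D3, and Trp73 was at 221 CPM, while Rfx2 and Gmnc had 0 reads. Of the genes of dividing cells, Top2a was at 551 CPM and Cdk1 at 449 CPM, while Mki67 was at 2.00 CPM and Birc5 had no read in any ciliated cell. Its ciliated markers summed to 9356 CPM with 13 of 14 present, below the group's median, and its club markers, at 1724 CPM, were the lowest of the 24. The cell in plate 3 well D10 had the second Foxn4 level, the highest Gmnc (370 CPM), Ccna1 at 459 CPM and Deup1 at 133.05 CPM, but 0 reads of Mcidas. These 2 cells are described because their values were seen to be high.

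**Figure D2:**
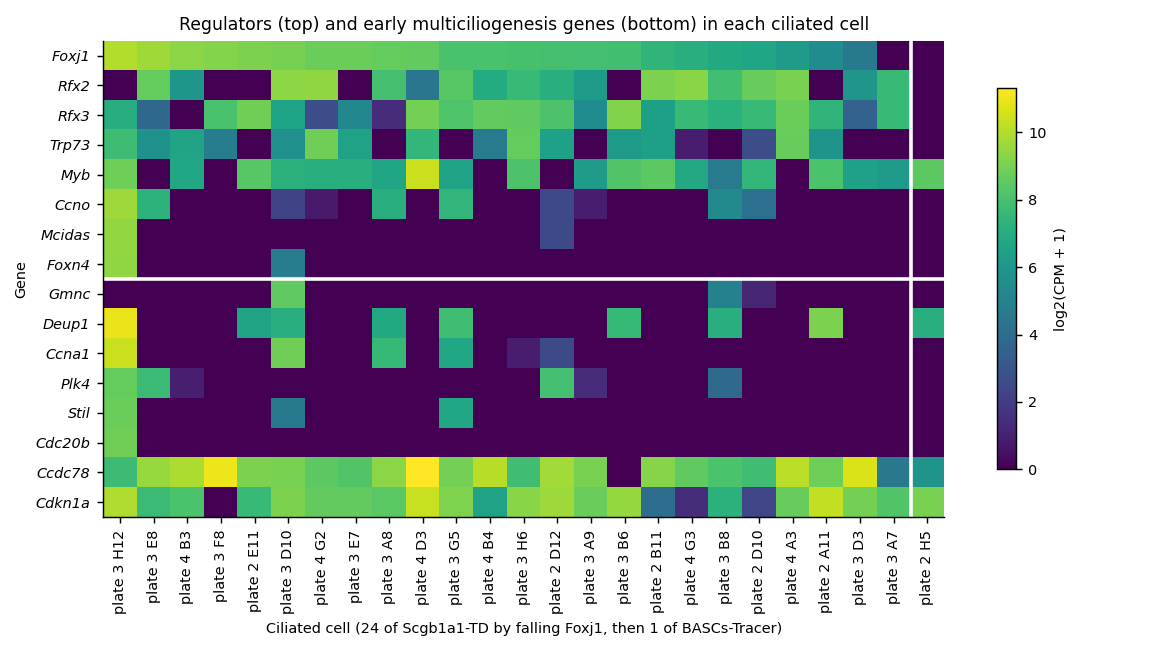
Columns are the 24 ciliated cells of Scgb1a1-TD ordered by Foxj1 and, right of the line, the 1 of BASCs-Tracer. Rows are genes and colour is log2(CPM + 1). Mcidas, Foxn4, Ccno, Deup1, Ccna1, Stil and Cdc20b are brightest in plate 3 well H12, whereas Foxj1, Rfx3 and Ccdc78 are present in 23 of 24 cells each.

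Per kilobase of exon, which allows levels of different genes to be compared, the mean over the 24 ciliated cells was highest for Foxj1, at 126.7 ± 99.6 CPM per kb (SD over cells). Rfx2 followed at 31.5 ± 32.2, Ccno at 21.7 ± 65.4, Myb at 21.4 ± 30.6, Rfx3 at 18.4 ± 15.8 and Trp73 at 17.4 ± 25.01 CPM per kb. Mcidas at 12.4 ± 60.5 and Foxn4 at 8.91 ± 42.1 CPM per kb came last. The SD gives the spread between cells and not the error of a mean, and no test of this order was made. By median the order below Foxj1 was Rfx2 at 23.1, Rfx3 at 16.2, Myb at 12.46 and Trp73 at 9.46 CPM per kb. The medians of Ccno, Mcidas and Foxn4 were 0. The place of Ccno by mean rested largely on plate 3 well H12, which held 58.5% of its reads in these cells. Each ciliated cell had 3 to 7 of the 8 regulators at 5 CPM or more: 11 cells had 4, 7 had 5 and 1, plate 3 well H12, had 7. Within the 24 cells, correlations among Foxj1, Rfx2, Rfx3 and Trp73 on the log2 scale were low, with Pearson values of -0.22 to 0.38 over 6 pairs. Among Ccno, Mcidas and Foxn4, whose reads lay mostly in plate 3 well H12, the values were 0.49 to 0.85. All remaining pairs of the 8 regulators lay within -0.313 to 0.306. With log2 depth each member's correlation was between -0.24 and 0.20. These are descriptions of cells that share plates and library preparation.

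Of the 8 genes, 8 were measured (5 CPM or more in either group) and 8 were 2-fold or more higher in ciliated than in club cells of Scgb1a1-TD, where 43% of the 12011 genes tested were. At 4-fold these were 8 of 8 against 23.2% of genes. Only Rfx3 and Ccno reached 5 CPM in club cells too, so the other 6 were measured through ciliated cells alone and had to be higher. The median log2 ratio of all tested genes was 0.74 and that of the 8 was 5.12. Median-of-ratios scaling, which takes out a shift of 0.65 over genes read in both groups, left the 8 ratios at 2.25 to 6.25. Without plate 3 well H12, 6 genes were measured and 6 were higher, and without plate 3 altogether 5 of 6 were. Against the 38 BASCs of the same line, 8 of 8 were 2-fold or more higher, against 48.9% of 12068 genes, and at 4-fold 8 of 8 against 30.8%. There only Rfx2 and Rfx3 reached 5 CPM in the BASCs, so the other 6 had to be higher in this comparison too. Both comparisons share the ciliated cells.

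**Figure D3:**
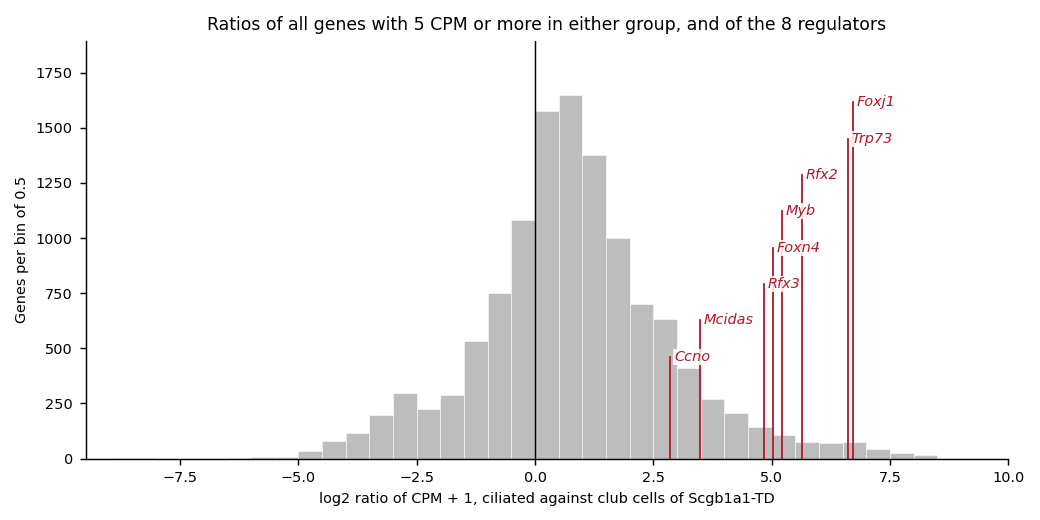
The horizontal axis is the log2 ratio of ciliated to club cells of Scgb1a1-TD with 1 CPM added, and grey bars count all 12011 tested genes in bins of 0.5. Red lines mark the 8 regulators, from Ccno at 2.86 to Foxj1 at 6.71; the height of a line carries no value.

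The genes that the regulators are known to drive were higher with them. Of 17 motile axoneme genes known as targets of FOXJ1 and RFX, 17 were 2-fold or more higher in ciliated than club cells, against 43% of all tested genes, with a median log2 ratio of 6.91. Only Cfap43 reached 5 CPM in club cells, so the other 16 were measured through ciliated cells alone and had to be higher. Of the 17, 4 (Dnah5, Ccdc39, Rsph1 and Tekt1) are also among the 14 ciliated markers. Rsph1 of the radial spoke (775 against 3.73 CPM), Cfap43 (680 against 11.3 CPM), Spag6l (672 against 2.37 CPM) and Spag17 (666 against 1.22 CPM), both of the central pair, were among them. Of 15 intraflagellar transport genes, which both immotile and motile cilia need, 15 were higher, against the same 43%, with a median of 3.68. All 15 reached 5 CPM in club cells as well. Dync2h1, the transport motor, was at 421 against 42.9 CPM, Ift88 at 382 against 10.7 CPM, Ift43 at 378 against 26.1 CPM and Dync2li1 at 292 against 33.4 CPM. In club cells the level per kilobase of exon was 0.0618 to 2.81 CPM over the axoneme genes and 0.6003 to 43.4 CPM over the transport genes.

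Of the early multiciliogenesis and centriole genes, 14 of 15 were measured: 8 were higher in ciliated cells, 1 was lower and 5 lay between, with a median log2 ratio of 1.83. Without plate 3 well H12, 13 were measured, 6 were higher and the median was 0.82. The shares of all tested genes were 43% higher and 14.9% lower, so the count of this list lay near them. Ccdc78, found at the same structures as Deup1, was at 673 against 0.957 CPM and had reads in 23 of the 24 cells. Ccdc78 shares 223 exon bases with Fam173a on the other strand, and their reads cannot be told apart there. Cdkn1a, the p21 cell cycle inhibitor, was at 416 against 40.5 CPM. Deup1 was at 137.6 against 0.154 CPM with reads in 8 ciliated cells, and Ccna1 at 97.3 against 0.0926 CPM with reads in 6.

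Gmnc, the geminin relative at the top of the programme, was read in more club than ciliated cells, and it is named together with Gmnn because their values stood out. Gmnc was at 18.3 CPM (16.5 to 20.1) in ciliated and 19.6 CPM (18.7 to 20.5) in club cells of Scgb1a1-TD, with reads in 3 of 24 and 27 of 97 cells. The ciliated level rested on plate 3 well D10, which held 373 of the 402 reads, and was 1.38 CPM without it. Gmnc was at 5.06 CPM in the BASCs of that line, 1.62 CPM in those of BASCs-Tracer and 0.00520 CPM, from 1 read, in the AT2 cells of Sftpc-TD. In both sets of BASCs 1 cell held nearly all of the reads, and the levels without it were 0.182 and 0.0850 CPM. The 15 club cells of BASCs-Tracer had 0 Gmnc reads. In Scgb1a1-TD, 15 club cells had 10 or more Gmnc reads, at 12.4 to 278 CPM, and they were found in each of plates 2, 3 and 4. Of these 15 cells, 5 had 10 or more reads of at least 1 regulator, as had 27 of the other 82 club cells. By gene there were 2 such cells for Myb, 2 for Ccno, 1 for Foxj1, 1 for Rfx2 and 0 for Rfx3 and Mcidas. Trp73 and Foxn4 reached 10 reads in no cell outside the ciliated class. The ciliated markers of these 15 cells had a median of 7.09 CPM, against 13.5 CPM in the other 82 club cells. Gmnn, geminin, which blocks DNA replication and opposes GMNC and MCIDAS, was at 3.41 CPM in ciliated and 80.2 CPM in club cells of Scgb1a1-TD. Reads were in 5 of 24 and 71 of 97 cells. A low Gmnn level was not particular to ciliated cells. The BASCs of that line stood at 6.72 CPM, the tracer BASCs at 7.02 CPM and the tracer club cells at 12.2 CPM. Sftpc-TD gave 5.56 CPM for its AT2 cells and 0.239 CPM for its BASCs.

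Of 7 measured Notch genes, 4 were higher and 2 lower in ciliated cells, with a median log2 ratio of 1.90, and these counts lay near the shares of all tested genes (43% and 14.9%). The ligand genes Jag1 (338 against 55.6 CPM) and Jag2 (76.3 against 0.0720 CPM) and the receptor gene Notch1 (72.9 against 18.8 CPM) were higher, as was Hey1 (44.9 against 3.41 CPM, with reads in 5 ciliated cells), and the receptor genes Notch2 (7.63 against 61.7 CPM) and Notch3 (4.59 against 18.02 CPM) were lower. Hes1, a target of the pathway, was at 308 against 201 CPM. Of 6 measured proliferation genes, 1 was higher and 3 were lower, against 43% and 14.9% of all tested genes, with a median of -0.53. Without plate 3 well H12, 6 of 6 were lower, with a median of -2.80, Mki67 among them (0.136 against 21.05 CPM with that cell kept). Without that cell all but Top2a were measured through club cells alone and had to be lower. In club cells the proliferation reads were in few cells, with Mki67 reads in 9 of 97.

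Outside ciliated cells, most traces of Foxj1, Myb, Trp73 and Foxn4 were of few reads. Over the 455 cells of other sub-types, 35 had a Foxj1 read, 49 a Myb read, 23 a Trp73 read and 4 a Foxn4 read. Of those with a read, 82.9% had 1 to 3 reads for Foxj1, 83.7% for Myb and 91.3% for Trp73, and 10 or more reads were in 5, 5 and 0 cells. For Rfx2, Rfx3 and Ccno, by contrast, 38, 40 and 40 cells had 10 or more reads, up to 1071 in 1 cell. Mcidas lay between, with reads in 19 cells, of which 42.1% had 1 to 3 reads and 8 cells had 10 or more. In cells with 10 or more reads the median sum of the ciliated markers was 24.9 CPM for Rfx2, 20.8 CPM for Rfx3 and 34.5 CPM for Ccno. It was 21.4, 22.5 and 21.4 CPM in the other cells. For the few such cells of Foxj1, Myb and Mcidas it was 90.7, 6.28 and 10.5 CPM, against 21.4, 21.9 and 22.3 CPM in the others. These medians are over all lines and sub-types, whose marker levels differ. Among the 455 cells, 331 had 10 or more reads of no regulator, 12 had them of 2 and 0 of 3 or more, and the rest of 1.

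In club cells of Scgb1a1-TD a Foxj1 read was seen in 14 of 97 cells, or 14.4% (Clopper-Pearson interval 8.12% to 23.03%). After each cell was thinned to 100000 reads, which left out 3 cells, it was 4 of 94, or 4.26% (1.17% to 10.5%). In BASCs of BASCs-Tracer it was 9 cells, or 6.52% (3.03% to 12.02%), and 4 cells after thinning, or 3.01% (0.825% to 7.52%). In AT2 cells of Sftpc-TD, where the gene is not thought to act, it was 5 cells, or 3.36% (1.10% to 7.66%), and 0 after thinning (interval up to 2.46%). In BASCs of Scgb1a1-TD, 6 of 38 cells held exactly 1 Foxj1 read each, and none was left of 37 cells after thinning. The median depths were 1082690 reads per club cell, 775502 per BASC of BASCs-Tracer and 1114310 per AT2 cell. After thinning, the counting intervals of these groups overlapped, and no test between them was made. All 4 thinned BASCs with a read were on plate 1, which held no ciliated cell.

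**Figure D4:**
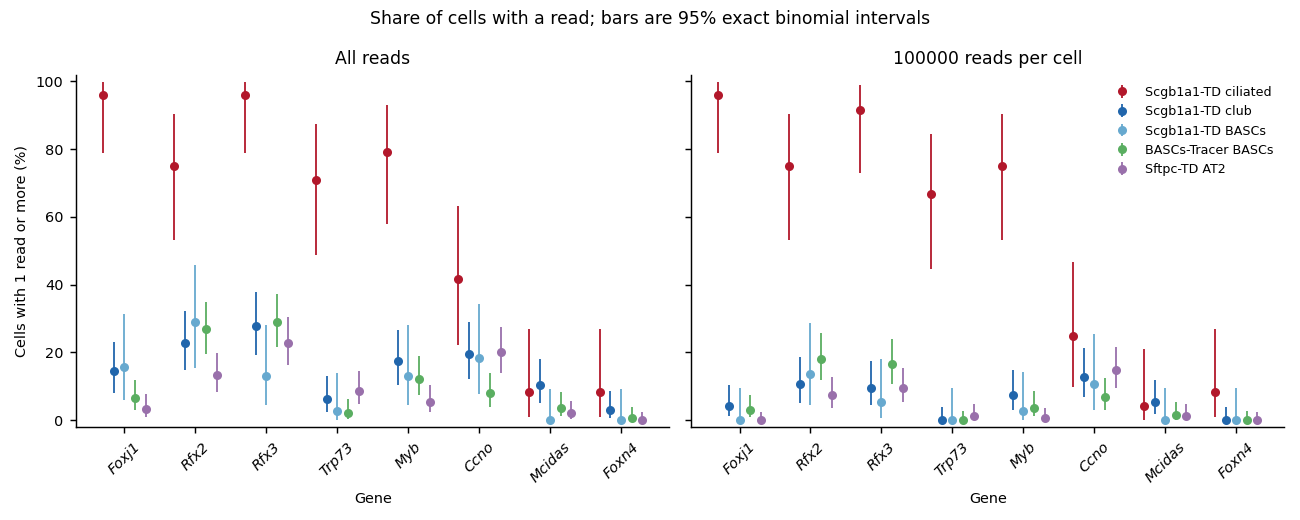
The vertical axis is the percentage of cells with 1 read or more of each gene, at full depth (left) and after thinning to 100000 reads per cell (right). Points are groups and bars are exact binomial intervals. After thinning, ciliated cells stay at 66.7% or more for Foxj1, Rfx2, Rfx3, Trp73 and Myb, and the other 4 groups shown at 18.05% or less for all 8.

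Some of these traces lay near ciliated cells on the plate. On plates 2 to 4, 24 of 199 cells that shared a well row or column with a ciliated cell had a Foxj1 read (12.1%, 7.88% to 17.4%), against 2 of 64 that shared neither (3.13%, 0.381% to 10.8%). For Myb these were 33 of 199 (16.6%, 11.7% to 22.5%) against 1 of 64 (1.56%, 0.0396% to 8.40%), and for Ccno 33 of 199 against 11 of 64 (16.6% against 17.2%). The first share was also the higher for Rfx3 (27.6% against 14.1%), Rfx2 (23.6% against 14.1%) and Trp73 (6.53% against 1.56%). Mcidas went the other way (3.52% against 6.25%), and Foxn4 had reads in 3 of 199 against 0 of 64. Line and sub-type differ between the sets. Within AT2 cells of plate 4 the Foxj1 shares were 3 of 32 against 0 of 28 and the Myb shares 5 of 32 against 0 of 28. Within BASCs of plate 2 they were 0 of 35 against 2 of 18 for Foxj1 and 6 of 35 against 0 of 18 for Myb. The cell of BASCs-Tracer labelled ciliated, plate 2 well H5, is among the ciliated cells here, with 0 reads of Foxj1 and Myb at 348 CPM. The part of well position in these shares was not tested.

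Rfx2 and Rfx3 had cells with many reads among BASCs of BASCs-Tracer. There, Rfx2 stood at 9.64 CPM (9.05 to 10.2) with 10 or more reads in 17 cells, and its highest cell was at 441 CPM. In AT2 cells of Sftpc-TD it stood higher, at 15.1 CPM (14.6 to 15.7). Without the cell with most reads of each group, Rfx2 was at 7.30 CPM in the tracer BASCs and 9.69 CPM in the AT2 cells. In the tracer BASCs Rfx3 stood at 14.4 CPM (13.6 to 15.1), against 9.77 CPM (9.34 to 10.2) in the AT2 cells, with 10 or more reads in 16 tracer BASCs, the highest at 379 CPM. Without the cell with most reads of each group, Rfx3 was at 12.3 CPM in the tracer BASCs and 6.33 CPM in the AT2 cells. Shares of tracer BASCs with 10 or more reads of Rfx2 and Rfx3 were 12.3% (7.34% to 18.99%) and 11.6% (6.77% to 18.1%), against 6.71% (3.27% to 11.996%) and 8.72% (4.73% to 14.5%) in AT2 cells of Sftpc-TD and 6.19% (2.30% to 12.98%) and 8.25% (3.63% to 15.6%) in club cells of Scgb1a1-TD. The intervals overlap. Rfx3 differed between plates of the tracer BASCs, at 20.8 CPM on plate 1 and 3.78 CPM on plate 2, while Rfx2 was at 9.65 and 9.62 CPM. In BASCs of Scgb1a1-TD, Rfx2 was at 16.7 CPM, of which 1 cell gave 73.5%, and 4.57 CPM without it. Rfx3 was at 5.66 CPM there, or 1.65 CPM without its top cell, with 10 or more reads in 2 of 38 cells (5.26%). In the 11 BASCs of Sftpc-TD it was at 0.318 CPM with 10 or more reads in 0 cells.

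Ccno had the smallest share of its reads in the ciliated cells of Scgb1a1-TD, at 24.2%. The share of Mcidas was 53.9%, and nearly all of it came from plate 3 well H12. In AT2 cells of Sftpc-TD Ccno stood at 13.6 CPM (13.05 to 14.1), above its 7.72 CPM in club cells, with reads in 30 cells and a highest cell of 292 CPM. The share of AT2 cells with a read was like on both plates, 12 of 60 on plate 4 (20%) and 18 of 89 on plate 5 (20.2%), and plate 5 held no ciliated cell. In BASCs it was at 29.3 CPM in Sftpc-TD (3 of 11 cells with reads), 3.80 CPM in Scgb1a1-TD and 3.70 CPM in BASCs-Tracer. Without the cell with most reads the first was 12.3 CPM and the second 1.81 CPM, and the third was 5.85 CPM on plate 1 and 0.149 CPM on plate 2. Mcidas is the neighbour of Ccno on chromosome 13. Outside the ciliated class, 40 of 455 cells had 10 or more Ccno reads and 8 had 10 or more Mcidas reads. Of these, 0 cells were in both sets, and cells this few cannot show whether the 2 genes keep apart. Mcidas was at 2.06 CPM in AT2 cells, with reads in 3 cells and 75.8% of them in 1, and at 1.97 CPM in club cells, with 10 or more reads in 5. It had reads in 0 of 38 BASCs of Scgb1a1-TD, where 3 counts of the total would be a share of 7.89%. Foxn4 had 1 read in the tracer BASCs and 0 in the AT2 cells of Sftpc-TD, where 3 counts of the total would be 2.01%.

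A few cells carried the signature of another class. The 1 cell of BASCs-Tracer labelled ciliated (plate 2 well H5) had 14 of 14 ciliated markers at a sum of 5623 CPM and Deup1 at 140 CPM, but 0 reads of Foxj1, Rfx2, Rfx3 and Trp73 at 1099813 reads. Of the 8 regulators it held Myb alone, at 348 CPM. It also had Scgb1a1 at 72979 CPM and Sftpc at 95578 CPM, so its values go against a label of ciliated cell alone. It entered no ratio of levels, but was counted as a ciliated cell in the shares by well row and column. The only ciliated cell of Scgb1a1-TD without a Foxj1 read, plate 3 well A7, had the lowest ciliated markers (4851 CPM), Scgb1a1 at 213332 CPM, Rfx2 at 199 CPM and Rfx3 at 192 CPM. Conversely, the club cell in plate 3 well B1 had Foxj1 at 151 CPM, Myb at 100 CPM, Gmnc at 195 CPM and 14 of 14 ciliated markers at 5653 CPM, beside Scgb1a1 at 161350 CPM. The club cell of BASCs-Tracer in plate 2 well E4 had 5 of the 8 regulators at 5 CPM or more, Foxj1 (83.5 CPM) and Myb (104.4 CPM) among them, from 13 reads in all of a library of 47886. Whether such cells are 1 cell or 2 was not tested. Without ciliated cells that had 100000 CPM or more of Scgb1a1 and club cells with over 1000 CPM of ciliated markers, Foxj1 was at 383 against 0.542 CPM, a log2 ratio of 7.96.

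Over all 480 cells, likeness in level was computed for the 6 regulators read in 10 or more ciliated cells, which leaves out Mcidas and Foxn4. For Foxj1 these were Spag16 (Pearson 0.94), 1110017D15Rik (0.90), Ak7 (0.90), Mapk15 (0.89) and Lrrc23 (0.89), out of 16107 genes with a read in 10 or more cells. Trp73 was most like Foxj1 itself (0.75), then Gm1673, Cfap161, Spef2 and Mns1 (0.73 each). Myb was most like Ak8 (0.80), BC051019 (0.80), Dnah6 (0.79), 1700016K19Rik (0.78) and 1110017D15Rik (0.77). The values were lower for Rfx3, with Spag16, Ak7, Dnaaf1, Ttll6 and Zfp474 at 0.52 each, and for Rfx2, with Cfap299 (0.54), Fam81a (0.52), Efcab1 (0.51), Tctex1d4 (0.50) and Dnah11 (0.50). For Ccno no gene passed 0.27 (Ccna1; then Efhc2, Rundc3b, Cep152 and Serpina9), which in sparse counts is no finding. Cells of 1 sub-type share their plates, so these values describe which cells hold the genes.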

How the data were processed

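Full-length cDNA of 480 single sorted lung cells was made into Nextera XT libraries, per the labels' protocols. The submitters' processing notes name HISAT2, HTSeq and the build GRCm38, and tool versions were not given in the sources used. The authors deposited raw counts of reads per gene and cell, without molecular identifiers, strand or scaling, so reads of overlapping genes on opposite strands cannot be told apart. The header lacks a name above the gene identifiers, so the first name belongs to the first count column; 0 columns were left unmatched. Symbols (53274 of 53379 identifiers), positions and exon lengths came from GENCODE M21, and promoters from RefSeq.

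Reads were summed per line and annotated sub-type and given as CPM of all gene reads, with exact Poisson intervals. Shares of cells have Clopper-Pearson intervals, at full depth and after thinning to 100000 reads. Ratios are log2 of CPM with 1 added, and genes with 5 CPM in either group were counted as measured. No animal is named, so no test was made and p-values are not given. No doublet caller was run, and no 2 cells had the same counts. The steps were tested on simulated data.

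The 8 genes and the gene lists were chosen with earlier results of these data known. Lists were named by up to 4 members with the highest level in ciliated cells, like genes by the 5 highest correlations, and other cells by 3 regulators at 5 CPM or Foxj1 at 50 CPM. Of 19 axoneme genes, 17 were matched by symbol. Python 3.11.15, NumPy 2.4.6, pandas 2.3.3, SciPy 1.17.1 and matplotlib 3.10.9 were used. Alternatives covered scaling, the value added, depth, filters, thinning and each plate left out; leaving out plate 3 well H12 or the cell with most reads of a gene, and leaving out cells with markers of both classes, were added after the data were seen.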

Additional observations from a re-analysis of the deposited data

Results flagged for a closer look

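Among the 6 AT2 cells of BASCs-Tracer, 1 cell (plate 2 well G5) was the only one with reads of either RFX factor. Its Rfx3 level was 104.6 CPM, and its Rfx2 level was 0.737 CPM, from 1 read, and the other 5 cells had 0 reads of either gene. Rfx2 and Rfx3 were each high in scattered club cells, BASCs and AT2 cells of the larger groups as well, and a single read sets the Rfx2 value. Chance marks about 1 in 20 groups in this way where values are continuous; with 5 cells at 0, any single read is enough.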

How the results depend on the processing

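The 8 of 8 regulators higher in ciliated than club cells stayed 8 under 10 of 12 alternatives, became 6 of 6 measured without plate 3 well H12, and became 5 of 6 without plate 3. The Foxj1 ratio (log2 6.71) was 4.86 with 10 CPM added, 7.56 without plate 3 and 7.96 without cells holding markers of both classes. Without plate 3, Ccno turned to -1.62 and Mcidas to -1.68, and without plate 3 well H12 Mcidas turned to -1.50. Of 80 recomputed ratios, 58 stayed within 1.5-fold, 19 moved further and 3 changed sign. The share of club cells with a Foxj1 read (4.26%) was 1.06% at 5 reads or more and 14.4% without thinning. That of tracer BASCs (3.01%) was 0% at 5 reads or more, and 0% without plate 1. Of the recomputed shares, 83 stayed within the interval of the main value and 21 did not. No paired analysis was possible because no test was made; ratios within plates 2, 3 and 4, which hold both classes, are given with the results. Without named animals the spread between mice is unknown, and at 1 to 3 reads per cell a trace cannot be told from reads of other wells. The cause of these changes was not tested.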
